A study of Drosophila melanogaster with 12 samples.

Results

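The comparison described here is that of high with low dietary sucrose in control larvae, made across all genes in 6 of the 12 libraries of the study. The 6 are the 3 control libraries on 0.7 M sucrose and the 3 control libraries on 0.15 M sucrose, chosen by their labels alone. The tissue was fat body from female larvae of Drosophila melanogaster, reared at 25 °C and collected as they wandered at the end of the last larval instar, the third. Every larva had a mother from the UAS-Dcr2; r4-GAL4 stock, so that the r4 driver, which is active in the fat body, expressed Dicer-2 on both diets. Control larvae had fathers of VDRC stock 60000 (w1118), so they carried no RNA interference construct. The other 6 libraries, 3 on each diet, came from larvae whose fathers were of stock 992 (UAS-InRi), a construct against the insulin receptor gene InR. They enter here only to estimate the spread and to set the same diet contrast beside that of control larvae. Fat bodies were freed by shearing and collected by centrifugation, and total RNA was depleted of ribosomal RNA before sequencing. The labels do not say whether libraries of a group came from separate cultures, so the p-values here cover the spread among these libraries alone.

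The larval fat body does the work that liver and adipose tissue share in mammals. It takes up sugar from the haemolymph, burns it through glycolysis and the tricarboxylic acid cycle, draws reducing power from the pentose phosphate pathway, and stores the surplus as glycogen and triglyceride. The transcription factor pair encoded by Mio and bigmax senses intracellular sugar, while insulin-like peptides and adipokinetic hormone act on the same stores from outside. Larvae fed excess sucrose are used as a model of diet-induced insulin resistance.

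Depth differed between libraries, and 1 library stood apart from the other control libraries. Replicates 1, 2 and 3 held 4695974, 5135234 and 872755 counts on 0.7 M sucrose, against 3505887, 1525455 and 3502143 counts on 0.15 M sucrose. In control 0.15 M replicate 2, genes of the mitochondrial genome took 0.0451% of counts, against 2.44% to 6.67% in the other 5 control libraries. It had counts for 7628 genes, against 9214 to 11153 in the other 5. Its Spearman correlation with them across tested genes was 0.743 to 0.774, while pairs of the 5 had 0.924 to 0.964. For 35.3% of the genes tested it lay above both other 0.15 M libraries and for 56.1% below both. Each result is therefore given with and without it. The defining genes of the fat body were abundant in all 6 libraries, with a summed level of 206600 to 285250 CPM on 0.7 M sucrose, against 185400 to 226460 CPM on 0.15 M sucrose for Lsp1beta, Lsp1gamma, Lsp2, Fbp1, Fbp2 and the lipophorin gene Rfabg. Most of that sum came from the storage protein genes, and Rfabg itself had 5265, 6852 and 6179 CPM on 0.7 M sucrose, against 6418, 184 and 7688 CPM on 0.15 M sucrose, with control 0.15 M replicate 2 far below the other 5. Levels are given as CPM, counts per 1000000 after TMM scaling, listed for replicates 1, 2 and 3 in that order, so the library that stood apart is always the middle value on 0.15 M sucrose. A floor of 3 counts was worth 0.591 to 3.27 CPM in a single control library. A bulk library cannot tell fewer cells of a type from less RNA per cell.

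InR, which encodes the insulin receptor, stood at 56.4, 45.4 and 55.5 CPM on 0.7 M sucrose, against 61.1, 26.04 and 43.1 CPM on 0.15 M sucrose. The groups overlapped, and the change did not pass (log2 fold change 0.25, SE 0.30, edgeR adjusted p = 0.764, or log2 fold change -0.02, SE 0.24, edgeR adjusted p = 0.993 without replicate 2). In the libraries labelled InRi the level of InR ran from 109 to 163 CPM over both diets, higher and not lower than in control. Whether reads from the construct were counted in InR is not known, and the cause was not tested. The name InRi below therefore refers to the label alone. In what follows, a pair of values given as "without replicate 2" is the log2 fold change and the edgeR adjusted p of the fit that leaves out control 0.15 M replicate 2.

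Sucrose changed 24 of the 8662 genes tested in control larvae (0.277%), as called by edgeR's quasi-likelihood test at a Benjamini-Hochberg adjusted p under 0.05. Of these, 11 were higher on 0.7 M sucrose (0.127% of genes tested) and 13 were lower (0.150%), a split that was 8 and 4 when libraries were scaled by total counts alone. Without control 0.15 M replicate 2 the number called was 134 of 8870 (1.51%), with 62 higher (0.699%) and 72 lower (0.812%), and it included all 24 in the same direction. The 24 had 3 values on 0.7 M sucrose that did not overlap the 3 on 0.15 M sucrose, as did 703 genes higher (8.12%) and 537 lower (6.20%) of all genes tested. The number called fell to 6, 4 and 6 without control 0.7 M replicates 1, 2 and 3, and to 0 when only the 6 control libraries were fitted, where 410 genes had an unadjusted p under 0.05 and DESeq2 with all libraries called 180. Among the rises were genes of fatty acid handling, of hormone signalling and of secreted defence peptides, and among the falls genes of digestive enzymes, lysozymes and an alpha-mannosidase.

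Genes of fatty acid and membrane lipid metabolism were among the 11 that rose. Cyp4e3, a cytochrome P450 gene of the family that in mammals hydroxylates fatty acids, stood at 107, 146 and 217 CPM on 0.7 M sucrose, against 1.36, 4.46 and 0.856 CPM on 0.15 M sucrose. Every library on 0.7 M sucrose lay far above every library on 0.15 M sucrose, and the change was the largest among called rises (log2 fold change 6.40, SE 0.57, edgeR adjusted p = 0.000558, or 7.06 and 5.40e-05 without replicate 2). CG12703, now named Abcd3, encodes a peroxisomal transporter of the ABC family and stood at 96.2, 101 and 144 CPM on 0.7 M sucrose, against 35.7, 50.6 and 33.7 CPM on 0.15 M sucrose. Its groups did not overlap (log2 fold change 1.51, SE 0.25, edgeR adjusted p = 0.0331, or 1.67 and 0.00312 without replicate 2). CG6178, which encodes a fatty acyl-CoA synthetase related to firefly luciferase, stood at 115, 122 and 142 CPM on 0.7 M sucrose, against 37.9, 20.8 and 51.7 CPM on 0.15 M sucrose (log2 fold change 1.75, SE 0.32, edgeR adjusted p = 0.0410, or 1.47 and 0.0122 without replicate 2). CG5991, now named Pisd, encodes the phosphatidylserine decarboxylase that makes phosphatidylethanolamine in mitochondria. It had 49.1, 54.9 and 50.1 CPM on 0.7 M sucrose, against 7.63, 6.70 and 9.70 CPM on 0.15 M sucrose, with little spread in either group (log2 fold change 2.65, SE 0.27, edgeR adjusted p = 0.000813, or 2.54 and 0.000364 without replicate 2). Here replicate 2 on 0.15 M sucrose lay close to its fellows.

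Genes of hormone signalling rose as well. CCHa2 encodes a peptide that the fat body releases after feeding and that acts on the insulin-producing cells of the brain. It stood at 154, 191 and 169 CPM on 0.7 M sucrose, against 55.3, 63.2 and 78.5 CPM on 0.15 M sucrose, without overlap (log2 fold change 1.38, SE 0.25, edgeR adjusted p = 0.0410, or 1.33 and 0.0164 without replicate 2). GRHR, now named AkhR, encodes the receptor for adipokinetic hormone, which mobilises fat and sugar stores much as glucagon does in mammals. It stood at 74.7, 89.7 and 66.4 CPM on 0.7 M sucrose, against 29.4, 29.01 and 34.8 CPM on 0.15 M sucrose (log2 fold change 1.31, SE 0.24, edgeR adjusted p = 0.0465, or 1.25 and 0.0201 without replicate 2). Of the 11 genes tested on the list of secreted signals, CCHa2 alone was called, with and without replicate 2. Beside this, 0.127% of all genes were called higher, or 0.699% without replicate 2. Ilp6, the fat body's own insulin-like peptide gene, stood at 192, 149.98 and 183 CPM on 0.7 M sucrose, against 168, 84.1 and 137 CPM on 0.15 M sucrose with overlapping groups (log2 fold change 0.43, SE 0.36, edgeR adjusted p = 0.679, or 0.18 and 0.911 without replicate 2). The activin ligand gene daw stood at 139, 146 and 169 CPM on 0.7 M sucrose, against 126, 94.5 and 104 CPM on 0.15 M sucrose, without overlap but without passing (log2 fold change 0.48, SE 0.27, edgeR adjusted p = 0.539, or 0.37 and 0.674 without replicate 2).

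Secreted defence and stress peptides made up another group of rises. CG43236, now named Mtkl for its likeness to the antimicrobial peptide gene Mtk, stood at 204, 195 and 174 CPM on 0.7 M sucrose, against 5.998, 0.744 and 23.4 CPM on 0.15 M sucrose. All 3 libraries on 0.7 M sucrose were far above those on 0.15 M sucrose, which differed among themselves (log2 fold change 4.13, SE 0.64, edgeR adjusted p = 0.0212, or 3.68 and 0.00178 without replicate 2). TotC, which encodes a stress-induced humoral factor, was at 21.7, 84.9 and 59.9 CPM on 0.7 M sucrose, against 1.91, 0 and 6.85 CPM on 0.15 M sucrose (log2 fold change 4.03, SE 0.72, edgeR adjusted p = 0.0410, or 3.62 and 0.0143 without replicate 2). Omitting control 0.15 M replicate 3 gave log2 fold changes of 5.55 for CG43236 and 5.38 for TotC. The remaining rises carry no role stated here. CG3348 had 204, 349.59 and 297 CPM on 0.7 M sucrose, against 5.72, 18.6 and 12.6 CPM on 0.15 M sucrose (log2 fold change 4.59, SE 0.47, edgeR adjusted p = 0.000813, or 4.93 and 0.000235 without replicate 2). CG1774 had 73.1, 109 and 124 CPM on 0.7 M sucrose, against 7.91, 25.3 and 13.7 CPM on 0.15 M sucrose (log2 fold change 2.77, SE 0.39, edgeR adjusted p = 0.0105, or 3.20 and 0.000443 without replicate 2). CG13912 had 102, 181 and 122 CPM on 0.7 M sucrose, against 30.8, 27.5 and 30.3 CPM on 0.15 M sucrose (log2 fold change 2.19, SE 0.27, edgeR adjusted p = 0.00428, or 2.12 and 0.00198 without replicate 2). In all 3 genes the groups lay well apart.

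**Figure D1:**
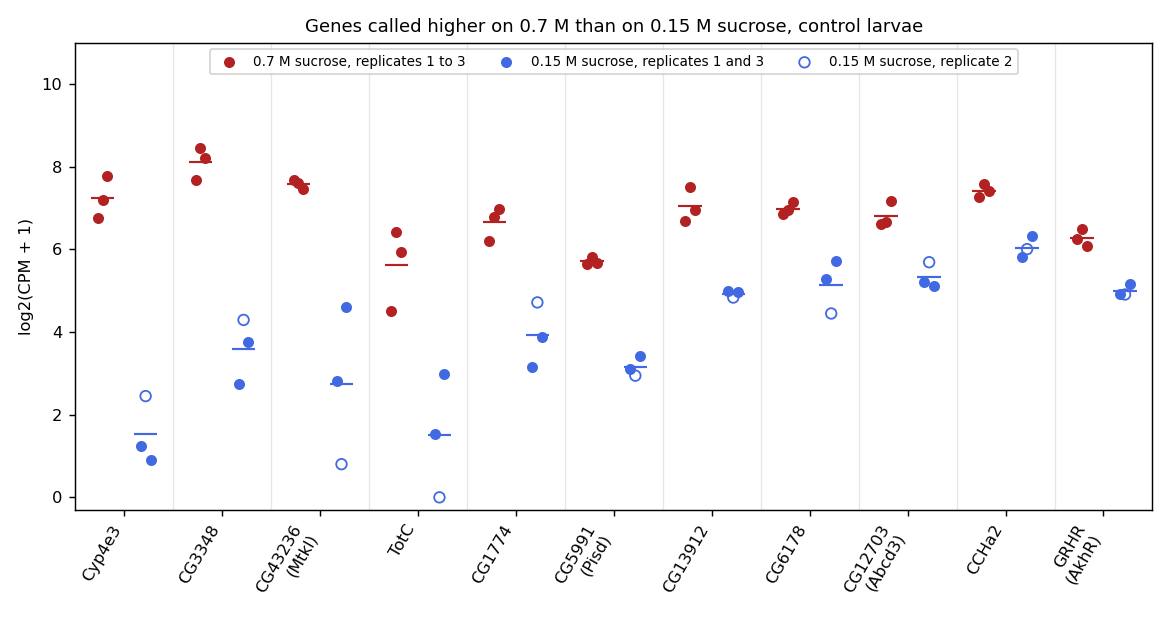
Levels of the 11 genes called higher on 0.7 M sucrose in control larvae, as log2(CPM + 1) on the vertical axis for each gene. Red points are the 3 libraries on 0.7 M sucrose, blue points those on 0.15 M sucrose with replicate 2 as an open circle, and bars are group means on this scale. In every gene the red points lie above the blue ones, by the widest margin in Cyp4e3.

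Among the 11 rises, only Cyp4e3, CG3348, CG5991 and CG13912 were called again in each of the 6 omissions of a control library. CG1774 was not called without control 0.7 M replicate 2 or 3. CG43236, TotC and CG6178 lost their calls without control 0.15 M replicate 1 or any 1 of the 0.7 M libraries. CG12703, CCHa2 and GRHR lost theirs in every omission except that of control 0.15 M replicate 2 (edgeR adjusted p up to 0.230 over these genes).

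Several of the falls were in digestive enzyme genes, while the falls of CG3292, CG13135 and CG9672, described after them, were larger than all of these but that of CG6271. Mal-A4, a maltase gene whose product splits sucrose and maltose, stood at 3.75, 3.32 and 6.53 CPM on 0.7 M sucrose, against 34.1, 29.01 and 20.6 CPM on 0.15 M sucrose. The groups did not overlap (log2 fold change -2.78, SE 0.49, edgeR adjusted p = 0.0410, or -2.81 and 0.0113 without replicate 2). Amy-p, one of a pair of near-identical amylase genes that digest starch, stood at 2.17, 1.33 and 4.36 CPM on 0.7 M sucrose, against 30.8, 6.70 and 15.98 CPM on 0.15 M sucrose (log2 fold change -3.11, SE 0.57, edgeR adjusted p = 0.0465, or -3.51 and 0.00178 without replicate 2). CG6271, of the pancreatic lipase family, stood at 0, 0.222 and 0 CPM on 0.7 M sucrose, against 11.99, 11.2 and 33.1 CPM on 0.15 M sucrose. With 1 count in all on 0.7 M sucrose, the scaled ratio of summed counts was 216-fold lower there (95% counting interval 38.2 to 8574), and the edgeR adjusted p was 0.0396, or 234-fold and 0.00671 without replicate 2. LysS and LysB encode lysozymes, which in fly larvae serve mainly to digest bacteria in the gut. LysS had 21.5, 31.7 and 34.8 CPM on 0.7 M sucrose, against 113, 339 and 433 CPM on 0.15 M sucrose (log2 fold change -3.35, SE 0.58, edgeR adjusted p = 0.0409, or -3.28 and 0.0135 without replicate 2). LysB had 2.76, 1.99 and 4.36 CPM on 0.7 M sucrose, against 25.4, 11.9 and 33.7 CPM on 0.15 M sucrose (log2 fold change -3.17, SE 0.53, edgeR adjusted p = 0.0331, or -3.50 and 0.00201 without replicate 2). Amylase and lysozyme genes have close copies, so the split of reads between copies is uncertain. CG9463, now named LManIII, is a lysosomal alpha-mannosidase gene with a mean under 5 CPM and was named after its values were seen. It passed the filter only through the 0.15 M control libraries, so a fall was close to the only call open to it. It had 0, 0.222 and 0 CPM on 0.7 M sucrose, against 4.36, 2.98 and 7.14 CPM on 0.15 M sucrose, and its single count on 0.7 M sucrose made it 55.5-fold lower (95% counting interval 9.47 to 2240.4, edgeR adjusted p = 0.0331, or 60.05-fold and 0.00549 without replicate 2).

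Other falls were in genes whose role is not stated here. CG9672 had 2.37, 1.33 and 1.09 CPM on 0.7 M sucrose, against 44.7, 81.1 and 137 CPM on 0.15 M sucrose, without overlap (log2 fold change -5.61, SE 0.65, edgeR adjusted p = 0.00262, or -5.67 and 0.000736 without replicate 2). CG12115 had 5.13, 7.53 and 9.80 CPM on 0.7 M sucrose, against 49.9, 72.2 and 104 CPM on 0.15 M sucrose (log2 fold change -3.42, SE 0.45, edgeR adjusted p = 0.00700, or -3.52 and 0.00178 without replicate 2). CG32302 had 12.2, 14.4 and 5.45 CPM on 0.7 M sucrose, against 54.3, 66.95 and 138 CPM on 0.15 M sucrose (log2 fold change -2.91, SE 0.47, edgeR adjusted p = 0.0294, or -3.04 and 0.00381 without replicate 2). CG14850, now named Jig, had 4.73, 1.11 and 4.36 CPM on 0.7 M sucrose, against 76.3, 115 and 18.8 CPM on 0.15 M sucrose (log2 fold change -4.43, SE 0.68, edgeR adjusted p = 0.0212, or -3.93 and 0.00483 without replicate 2). CG6839 had 1.58, 2.22 and 1.09 CPM on 0.7 M sucrose, against 11.4, 14.9 and 44.8 CPM on 0.15 M sucrose (log2 fold change -3.74, SE 0.68, edgeR adjusted p = 0.0428, or -3.98 and 0.00930 without replicate 2). All of these were low in the 3 libraries on 0.7 M sucrose and variable on 0.15 M sucrose. CG3292 and CG13135 were close to absent on 0.7 M sucrose, with 3 counts each. CG3292 stood at 0.197, 0.443 and 0 CPM on 0.7 M sucrose, against 13.4, 20.8 and 47.9 CPM on 0.15 M sucrose (101-fold lower, 95% counting interval 34.1 to 492, edgeR adjusted p = 0.0410, or 106-fold and 0.0160 without replicate 2). CG13135 stood at 0.197, 0.443 and 0 CPM on 0.7 M sucrose, against 26.2, 26.8 and 9.13 CPM on 0.15 M sucrose (67.4-fold lower, 95% counting interval 22.7 to 330.3, edgeR adjusted p = 0.00967, or 62.5-fold and 0.00299 without replicate 2). Counting intervals leave out the spread between libraries.

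**Figure D2:**
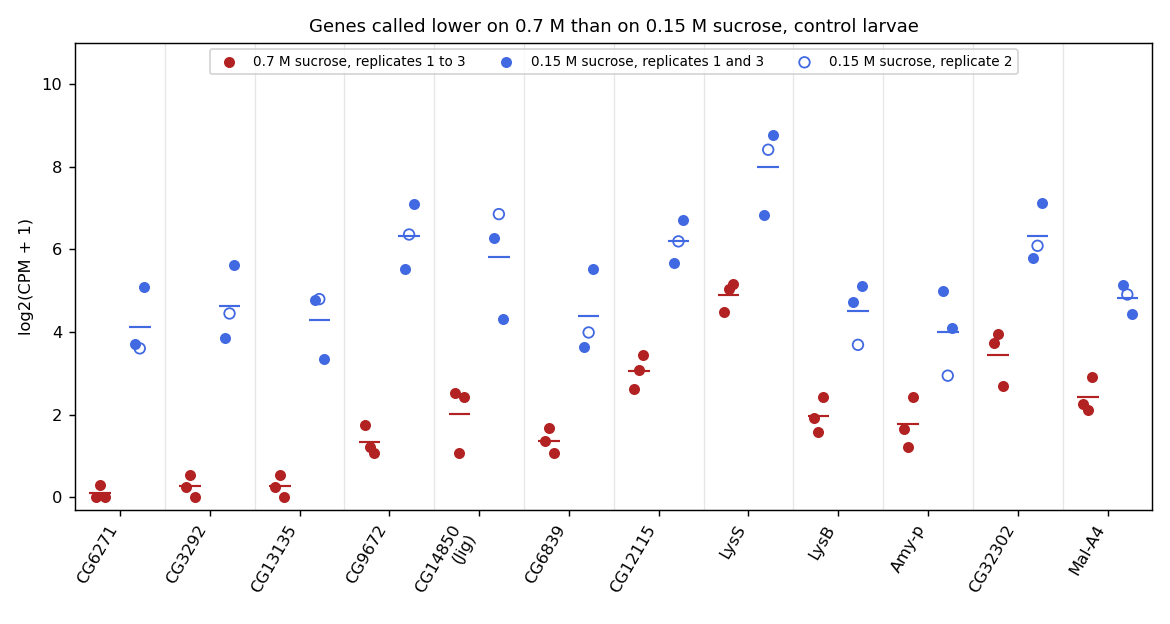
Levels of the 12 named genes called lower on 0.7 M sucrose in control larvae, as log2(CPM + 1) on the vertical axis. Red points are the 3 libraries on 0.7 M sucrose, blue points those on 0.15 M sucrose with replicate 2 as an open circle, and bars are group means on this scale. In every gene all red points lie below all blue ones, the open circle included.

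Markers of the midgut moved with these falls. The summed level of 10 midgut markers was 298 to 347 CPM on 0.7 M sucrose, against 614 to 1649 CPM on 0.15 M sucrose, so that the groups did not overlap, and none of the 10 was at 0 in all 6 libraries. All 10 had a negative log2 fold change, beside 4104 of all 8662 genes. With all libraries 2 of them were called lower, LysB and Amy-p, which are also falls named above. Without replicate 2 there were 3, when Jon25Bi was added. Beside this, 0.150% of all genes were called lower, or 0.812% without replicate 2. The median log2 fold change of the 10 markers was -1.68, or -1.75 without replicate 2, against 0.03 and -0.01 over all genes tested. The sum of 7 hemocyte markers was 499.8 to 707 CPM on 0.7 M sucrose, against 722 to 1836 CPM on 0.15 M sucrose, again without overlap. All 7 hemocyte markers were negative, with 0 called, or 1 called lower without replicate 2, beside 0.812% of all genes. That gene was nimC1, which encodes a phagocytosis receptor of blood cells, at 6.11, 15.3 and 6.53 CPM on 0.7 M sucrose, against 23.99, 15.6 and 39.7 CPM on 0.15 M sucrose (log2 fold change -1.46, SE 0.44, edgeR adjusted p = 0.232, or -1.72 and 0.0438 without replicate 2). Hml, the blood cell gene hemolectin, stood at 66.6, 72.7 and 98.01 CPM on 0.7 M sucrose, against 106, 133 and 271 CPM on 0.15 M sucrose (log2 fold change -1.12, SE 0.41, edgeR adjusted p = 0.358, or -1.30 and 0.163 without replicate 2). The part of midgut or blood cell RNA in the falls was not tested.

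Each of the falls below lost its call in the omission of at least 1 control library. CG9672 lost its call without control 0.7 M replicate 2, and CG12115 without control 0.7 M replicate 1 or 2. CG13135 and CG14850 lost theirs without any 1 of the 0.7 M libraries. CG6271, CG3292, CG6839, LysS and CG32302 lost theirs in those omissions or without control 0.15 M replicate 3, and Mal-A4 in those or without control 0.15 M replicate 1. LysB and Amy-p kept theirs only without control 0.15 M replicate 2 (edgeR adjusted p up to 0.292 over the named falls).

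Further genes of carbohydrate digestion were called lower without replicate 2. Of 11 maltase and amylase genes tested, 0 were higher and 2 lower with all libraries, and 0 were higher and 5 lower without replicate 2, beside 0.150% and 0.812% of all genes lower. Their median log2 fold change was -1.45, or -1.67 without replicate 2. Mal-A3 had 0.986, 0.886 and 2.18 CPM on 0.7 M sucrose, against 9.27, 2.98 and 8.56 CPM on 0.15 M sucrose (log2 fold change -2.73, SE 0.62, edgeR adjusted p = 0.0967, or -3.05 and 0.0122 without replicate 2). Amy-d had 1.18, 2.66 and 3.27 CPM on 0.7 M sucrose, against 15.5, 2.98 and 14.6 CPM on 0.15 M sucrose (log2 fold change -2.48, SE 0.57, edgeR adjusted p = 0.0978, or -2.89 and 0.00263 without replicate 2). Amyrel had 6.51, 4.87 and 4.36 CPM on 0.7 M sucrose, against 36.3, 5.95 and 16.8 CPM on 0.15 M sucrose (log2 fold change -1.91, SE 0.60, edgeR adjusted p = 0.262, or -2.29 and 0.0316 without replicate 2). In Amy-d and Amyrel the middle library on 0.15 M sucrose lay within the range on 0.7 M sucrose. Not every maltase gene was lower. Mal-A5 had 695, 1102 and 689 CPM on 0.7 M sucrose, against 807, 472 and 722 CPM on 0.15 M sucrose with overlapping groups (log2 fold change 0.31, SE 0.34, edgeR adjusted p = 0.748, or 0.09 and 0.961 without replicate 2). Mal-B2 had 155, 178 and 145 CPM on 0.7 M sucrose, against 99.8, 117 and 142 CPM on 0.15 M sucrose, higher without overlap and without passing (log2 fold change 0.42, SE 0.26, edgeR adjusted p = 0.575, or 0.38 and 0.639 without replicate 2). tobi, a glucosidase gene known to respond to sugar and protein in the diet, had 22.1, 15.95 and 26.1 CPM on 0.7 M sucrose, against 20.99, 18.6 and 41.4 CPM on 0.15 M sucrose with overlapping groups (log2 fold change -0.39, SE 0.43, edgeR adjusted p = 0.749, or -0.62 and 0.615 without replicate 2).

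Some Jonah genes, which encode digestive serine proteases of the larval gut, were also lower without replicate 2. Of 15 tested, 0 were called with all libraries, and 3 were lower without replicate 2, beside 0.812% of all genes. The first was Jon65Aiv at 174, 127 and 179.69 CPM on 0.7 M sucrose, against 571, 807 and 1355 CPM on 0.15 M sucrose (log2 fold change -2.51, SE 0.51, edgeR adjusted p = 0.0659, or -2.61 and 0.0205 without replicate 2). Jon25Bi had 48.5, 44.97 and 43.6 CPM on 0.7 M sucrose, against 137, 581 and 543 CPM on 0.15 M sucrose (log2 fold change -3.20, SE 0.68, edgeR adjusted p = 0.0803, or -2.91 and 0.0428 without replicate 2), and Jon25Bii had 19.1, 20.4 and 8.71 CPM on 0.7 M sucrose, against 41.4, 139 and 197 CPM on 0.15 M sucrose (log2 fold change -2.89, SE 0.60, edgeR adjusted p = 0.0750, or -2.79 and 0.0329 without replicate 2). In each, all libraries on 0.7 M sucrose lay below all on 0.15 M sucrose, replicate 2 included. The list median was -0.78, or -0.96 without replicate 2. Jon99Fi and Jon99Fii had positive log2 fold changes in both fits, against 13 negative members. Jon99Fi stood at 31.7, 16.2 and 26.1 CPM on 0.7 M sucrose, against 13.4, 20.1 and 4.28 CPM on 0.15 M sucrose, without passing (log2 fold change 1.04, SE 0.52, edgeR adjusted p = 0.491, or 1.45 and 0.204 without replicate 2). The list of trypsins, chosen after values were seen, had 8 genes tested and 2 lower without replicate 2 (9 tested), beside the same 0.812%. deltaTry had 3.75, 5.10 and 5.45 CPM on 0.7 M sucrose, against 22.4, 3.72 and 44.5 CPM on 0.15 M sucrose (log2 fold change -2.41, SE 0.76, edgeR adjusted p = 0.255, or -2.90 and 0.0201 without replicate 2). epsilonTry had 15.8, 27.03 and 17.4 CPM on 0.7 M sucrose, against 60.2, 22.3 and 185 CPM on 0.15 M sucrose (log2 fold change -2.15, SE 0.66, edgeR adjusted p = 0.249, or -2.61 and 0.0218 without replicate 2). The middle library on 0.15 M sucrose lay below all on 0.7 M sucrose in deltaTry and within their range in epsilonTry.

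Leaving out control 0.15 M replicate 2 added 110 calls, 51 higher and 59 lower. Of the 51, replicate 2 lay above both other 0.15 M libraries in 30 and below both in 16. Of the 59, it lay below both in 46 and above both in 7. The largest rises among them, of genes with non-overlapping groups and at least 5 CPM on average on 0.7 M sucrose, were in CG14205, CG13741, CG43085, 7B2, CG15553 and CG4991. 7B2, whose product is a secreted chaperone of the prohormone convertase, had 92.1, 244 and 155 CPM on 0.7 M sucrose, against 43.9, 72.2 and 19.1 CPM on 0.15 M sucrose (log2 fold change 1.89, SE 0.49, edgeR adjusted p = 0.157, or 2.34 and 0.0249 without replicate 2). CG43085 had the highest CPM of these, with 941, 1219 and 1460.4 CPM on 0.7 M sucrose, against 168, 15.6 and 170.11 CPM on 0.15 M sucrose (log2 fold change 3.34, SE 0.70, edgeR adjusted p = 0.0750, or 2.81 and 0.00438 without replicate 2). CG15553 had 37.7, 42.98 and 32.7 CPM on 0.7 M sucrose, against 8.18, 0 and 7.99 CPM on 0.15 M sucrose (log2 fold change 2.63, SE 0.52, edgeR adjusted p = 0.0649, or 2.22 and 0.00172 without replicate 2). CG4991 had 15.4, 33.9 and 17.4 CPM on 0.7 M sucrose, against 5.72, 8.93 and 3.996 CPM on 0.15 M sucrose (log2 fold change 1.95, SE 0.46, edgeR adjusted p = 0.110, or 2.20 and 0.0325 without replicate 2). CG13741, now named Boot, had 8.48, 11.1 and 7.62 CPM on 0.7 M sucrose, against 1.64, 0 and 0.571 CPM on 0.15 M sucrose (log2 fold change 3.31, SE 0.66, edgeR adjusted p = 0.0649, or 3.01 and 0.0294 without replicate 2). CG14205 had 14.2, 4.87 and 7.62 CPM on 0.7 M sucrose, against 0.545, 2.98 and 0 CPM on 0.15 M sucrose. CG14205 had only 2 counts on 0.15 M sucrose without replicate 2, a ratio of summed counts of 34.5 (95% counting interval 9.30 to 289, edgeR adjusted p = 0.0316). By the rule that chose these 6 genes, all 3 libraries on 0.7 M sucrose lay above all 3 on 0.15 M sucrose.

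Among genes with non-overlapping groups and at least 5 CPM on average on 0.15 M sucrose, the largest falls added in this way were CG9468, CG6277, CG14302, CG8664, CG6283 and CG3819. CG9468, now named LManVI, is a further alpha-mannosidase gene and had 0.591, 0 and 0 CPM on 0.7 M sucrose, against 5.45, 8.18 and 15.4 CPM on 0.15 M sucrose. Its 3 counts on 0.7 M sucrose made it 36.1-fold lower without replicate 2 (95% counting interval 11.9 to 179, edgeR adjusted p = 0.0315). CG9466, now named LManV, also had a single count on 0.7 M sucrose (0, 0 and 1.09 CPM, against 2.999, 0.744 and 5.14 CPM on 0.15 M sucrose). It was not tested with all libraries. Without replicate 2 it passed the filter only through the 0.15 M control libraries, so a fall was close to the only call open to it (42.5-fold lower, 95% counting interval 7.04 to 1735, edgeR adjusted p = 0.0490). CG9463 and CG9468 also passed the filter through those libraries alone. The related CG6206, now named LManII, had 357, 525 and 392 CPM on 0.7 M sucrose, against 749, 609 and 703 CPM on 0.15 M sucrose, without overlap and without passing (log2 fold change -0.69, SE 0.35, edgeR adjusted p = 0.498, or -0.80 and 0.348 without replicate 2). CG6277 and CG6283 belong with CG6271 to the pancreatic lipase family. CG6277 had 0.986, 1.33 and 5.45 CPM on 0.7 M sucrose, against 19.6, 20.1 and 45.95 CPM on 0.15 M sucrose (log2 fold change -4.06, SE 0.91, edgeR adjusted p = 0.0916, or -4.34 and 0.0256 without replicate 2). CG6283 had 5.91, 12.6 and 10.9 CPM on 0.7 M sucrose, against 50.98, 45.4 and 218 CPM on 0.15 M sucrose (log2 fold change -3.46, SE 0.76, edgeR adjusted p = 0.0878, or -3.86 and 0.0162 without replicate 2). CG14302 had 5.91, 3.99 and 11.98 CPM on 0.7 M sucrose, against 50.2, 12.6 and 139 CPM on 0.15 M sucrose (log2 fold change -3.43, SE 0.84, edgeR adjusted p = 0.119, or -3.998 and 0.0113 without replicate 2). CG8664 had 15.8, 12.4 and 10.9 CPM on 0.7 M sucrose, against 87.5, 142 and 307 CPM on 0.15 M sucrose (log2 fold change -3.75, SE 0.81, edgeR adjusted p = 0.0847, or -3.89 and 0.0311 without replicate 2). CG3819 had 5.72, 5.76 and 5.45 CPM on 0.7 M sucrose, against 23.7, 7.44 and 130.15 CPM on 0.15 M sucrose (log2 fold change -3.27, SE 0.89, edgeR adjusted p = 0.188, or -3.77 and 0.0203 without replicate 2). All 6 of the genes named by the rule had non-overlapping values in the 3 libraries of each diet, as that rule required.

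Genes of sugar breakdown changed their common direction with control 0.15 M replicate 2. Of 13 glycolysis genes tested, 0 were called with or without it. With all libraries 10 had a negative log2 fold change, beside 4104 of all 8662 genes, and the median was -0.44. Without replicate 2, 12 were positive, beside 4318 of all 8870 genes, and the median was 0.27. Tpi, which encodes triosephosphate isomerase, had 470.42, 562 and 487 CPM on 0.7 M sucrose, against 310.24, 3119 and 532 CPM on 0.15 M sucrose (log2 fold change -1.38, SE 0.65, edgeR adjusted p = 0.477, or 0.24 and 0.849 without replicate 2). The lactate dehydrogenase gene ImpL3 had 25.2, 21.3 and 23.96 CPM on 0.7 M sucrose, against 11.99, 164 and 29.4 CPM on 0.15 M sucrose (log2 fold change -1.50, SE 0.80, edgeR adjusted p = 0.520, or 0.16 and 0.958 without replicate 2). In both the middle library on 0.15 M sucrose was above all others by a wide margin, and the groups overlapped without it as well. Hex-A, which encodes a hexokinase, was the member with a negative value in both fits, at 34.7, 26.4 and 41.4 CPM on 0.7 M sucrose, against 43.6, 74.4 and 45.95 CPM on 0.15 M sucrose (log2 fold change -0.69, SE 0.28, edgeR adjusted p = 0.429, or -0.45 and 0.514 without replicate 2).

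The pentose phosphate list had the same change of sign. Of 7 genes tested, 0 were called with or without replicate 2, and the median was -0.24 with it and 0.72 without it. All 7 were positive without it, beside 4318 of all 8870 genes. Tal, which encodes transaldolase, had 407, 545 and 497 CPM on 0.7 M sucrose, against 225, 1996 and 289 CPM on 0.15 M sucrose (log2 fold change -0.79, SE 0.63, edgeR adjusted p = 0.659, or 0.88 and 0.107 without replicate 2). Pgd, the gene of the second dehydrogenase of the pathway, had 208, 313 and 261 CPM on 0.7 M sucrose, against 101, 613 and 165 CPM on 0.15 M sucrose (log2 fold change -0.16, SE 0.53, edgeR adjusted p = 0.918, or 0.94 and 0.195 without replicate 2). Zw, the gene of glucose-6-phosphate dehydrogenase, which feeds the pathway, was a member in which replicate 2 lay between its fellows, at 15.2, 26.6 and 34.8 CPM on 0.7 M sucrose, against 14.7, 12.6 and 11.4 CPM on 0.15 M sucrose. Its groups did not overlap, without passing (log2 fold change 0.92, SE 0.33, edgeR adjusted p = 0.354, or 0.84 and 0.308 without replicate 2). The tricarboxylic acid cycle list, with 18 genes tested and 0 called either way, had a median of -0.25 with replicate 2 and 0.24 without it.

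**Figure D3:**
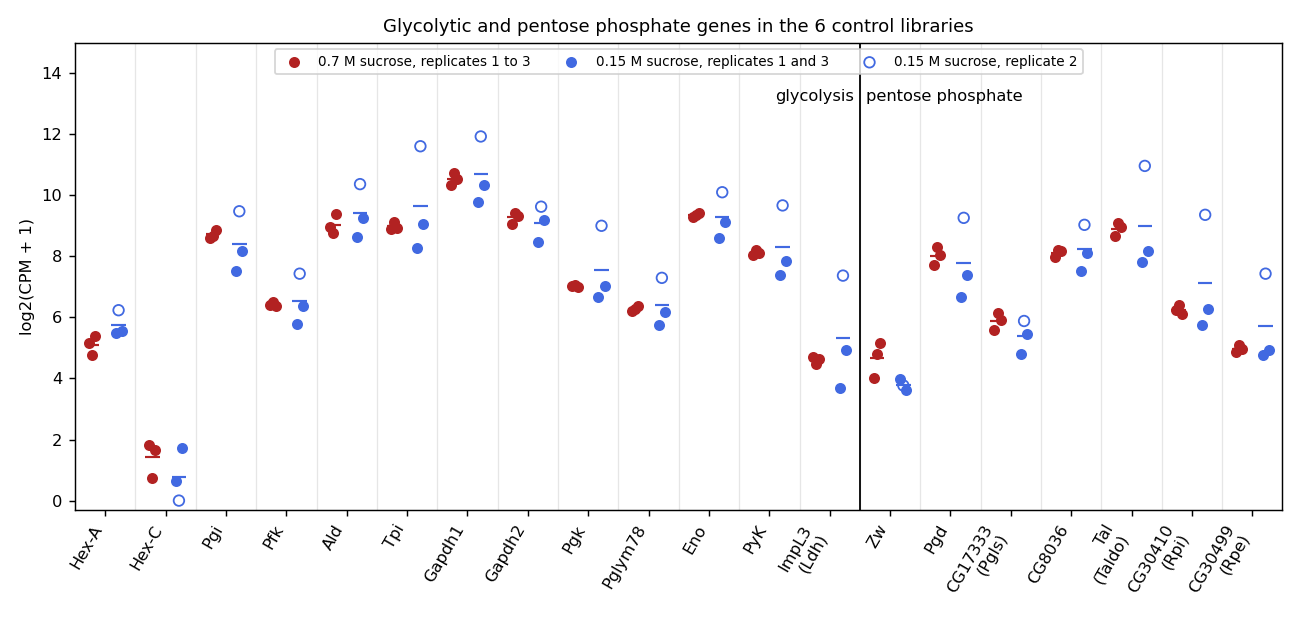
Levels of 13 glycolytic and 7 pentose phosphate genes in the 6 control libraries, as log2(CPM + 1) on the vertical axis. Red points are the 3 libraries on 0.7 M sucrose, blue points those on 0.15 M sucrose with replicate 2 as an open circle, and bars are group means on this scale. The open circle lies above every other point in most genes, and in most genes the filled blue points overlap the red ones or lie below them.

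Glycerol phosphate and gluconeogenic genes lay higher on 0.7 M sucrose once replicate 2 was left out. Of 7 tested, 0 were called with all libraries, and 1 was higher without replicate 2, when all 7 were positive and did not overlap. Beside this, 13.6% of all genes tested were higher without overlap in 3 against 2 libraries. In that fit 0.699% were called higher, and 4318 of 8870 were positive. The list median was 0.18, or 0.89 without replicate 2. The called gene was Gpdh, which encodes the glycerol-3-phosphate dehydrogenase that makes the backbone of triglyceride, at 187, 198 and 342 CPM on 0.7 M sucrose, against 47.98, 252 and 75.9 CPM on 0.15 M sucrose (log2 fold change 0.96, SE 0.56, edgeR adjusted p = 0.548, or 1.94 and 0.0467 without replicate 2). Gpo-1, the gene of its mitochondrial partner enzyme, had 33.3, 23.3 and 65.3 CPM on 0.7 M sucrose, against 10.4, 21.6 and 10.3 CPM on 0.15 M sucrose, with no overlap but a wide spread on 0.7 M sucrose (log2 fold change 1.54, SE 0.52, edgeR adjusted p = 0.309, or 1.84 and 0.130 without replicate 2). The phosphoenolpyruvate carboxykinase gene CG10924 had 321, 436 and 403 CPM on 0.7 M sucrose, against 197, 433 and 189.51 CPM on 0.15 M sucrose (log2 fold change 0.50, SE 0.35, edgeR adjusted p = 0.616, or 0.97 and 0.101 without replicate 2).

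Of 17 genes of fatty acid and triglyceride synthesis tested, 0 were called with all libraries and 1 was higher without replicate 2, beside 0.699% of all genes. That gene was AcCoAS, which encodes acetyl-CoA synthetase, at 642, 1109 and 1202 CPM on 0.7 M sucrose, against 268, 724 and 359.9 CPM on 0.15 M sucrose (log2 fold change 1.13, SE 0.43, edgeR adjusted p = 0.384, or 1.62 and 0.0461 without replicate 2). The delta-9 desaturase gene desat1 had 590.49, 823 and 814 CPM on 0.7 M sucrose, against 217, 197 and 312 CPM on 0.15 M sucrose, without overlap and without passing in either fit (log2 fold change 1.61, SE 0.36, edgeR adjusted p = 0.0891, or 1.46 and 0.0614 without replicate 2). Men, which encodes the malic enzyme that supplies NADPH for lipid synthesis, had 479.69, 557 and 745 CPM on 0.7 M sucrose, against 189, 241 and 327 CPM on 0.15 M sucrose (log2 fold change 1.23, SE 0.33, edgeR adjusted p = 0.176, or 1.18 and 0.113 without replicate 2). The fatty acid synthase gene CG3523, now FASN1, had 1124, 1453 and 2034 CPM on 0.7 M sucrose, against 649, 2066 and 803 CPM on 0.15 M sucrose (log2 fold change 0.39, SE 0.45, edgeR adjusted p = 0.761, or 1.06 and 0.177 without replicate 2). Its middle value on 0.15 M sucrose was the highest of the 6. The list median was 0.39, or 0.27 without replicate 2.

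No member of the fatty acid oxidation list was called. Of its 19 genes tested, 0 were called in either fit. Without replicate 2, 19 were positive, beside 4318 of all 8870 genes, and the median was 0.55, against 0.19 with all libraries. Acox57D-d, a peroxisomal acyl-CoA oxidase gene, came nearest to passing, at 31.2, 27.5 and 43.6 CPM on 0.7 M sucrose, against 10.4, 8.93 and 10.6 CPM on 0.15 M sucrose with no overlap (log2 fold change 1.73, SE 0.38, edgeR adjusted p = 0.0876, or 1.62 and 0.0634 without replicate 2). Of 9 lipolysis and droplet genes, 0 were called with all libraries and 1 was lower without replicate 2, beside 0.812% of all genes. Lsd-1, which encodes a perilipin that coats lipid droplets, had 903, 1468 and 1054 CPM on 0.7 M sucrose, against 498, 167 and 486 CPM on 0.15 M sucrose (log2 fold change 1.57, SE 0.40, edgeR adjusted p = 0.147, or 1.19 and 0.0531 without replicate 2). bmm, the gene of the triglyceride lipase brummer, had 61.7, 49.2 and 51.2 CPM on 0.7 M sucrose, against 43.3, 29.8 and 36.2 CPM on 0.15 M sucrose (log2 fold change 0.56, SE 0.32, edgeR adjusted p = 0.544, or 0.43 and 0.702 without replicate 2). Both were higher in every library on 0.7 M sucrose than in any on 0.15 M sucrose, without passing. Lip3, a lipase gene known to rise in starvation, was called lower without replicate 2, at 1.58, 2.22 and 0 CPM on 0.7 M sucrose, against 19.1, 0.744 and 10.8 CPM on 0.15 M sucrose (log2 fold change -2.74, SE 0.72, edgeR adjusted p = 0.169, or -3.17 and 0.00263 without replicate 2). Among the 7 lipoprotein genes tested, 0 were called with all libraries. Karl, a lipocalin gene, was called lower without replicate 2, beside the same 0.812% of all genes. It had 8.87, 13.5 and 8.71 CPM on 0.7 M sucrose, against 19.1, 5.21 and 36.5 CPM on 0.15 M sucrose (log2 fold change -0.99, SE 0.47, edgeR adjusted p = 0.477, or -1.40 and 0.0219 without replicate 2).

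No member of the sugar-sensing or insulin and Tor lists was called. Of 11 sugar-sensing genes tested, 0 passed in either fit, 6 were higher without overlap, as were 8.12% of all genes, and the median was 0.48, or 0.36 without replicate 2. Mio, the sugar-responsive partner of bigmax, had 108, 94.6 and 148 CPM on 0.7 M sucrose, against 65.2, 18.6 and 69.1 CPM on 0.15 M sucrose (log2 fold change 1.17, SE 0.41, edgeR adjusted p = 0.336, or 0.76 and 0.277 without replicate 2). sug, a repressor gene downstream of it, had 24.3, 19.9 and 25.05 CPM on 0.7 M sucrose, against 15.8, 0 and 7.14 CPM on 0.15 M sucrose (log2 fold change 1.43, SE 0.62, edgeR adjusted p = 0.454, or 0.96 and 0.377 without replicate 2). In both, replicate 2 was the lowest library. Of 22 insulin and Tor genes tested, 0 passed in either fit, with a median of 0.21 or -0.02 without replicate 2. Thor, the translational repressor gene that foxo activates, had 139, 145 and 225 CPM on 0.7 M sucrose, against 177, 38.7 and 92.8 CPM on 0.15 M sucrose (log2 fold change 0.70, SE 0.49, edgeR adjusted p = 0.614, or 0.30 and 0.864 without replicate 2). Of 11 trehalose and glycogen genes, 0 passed in either fit. CG33138, now AGBE, the glycogen branching enzyme gene, had 333, 499 and 514 CPM on 0.7 M sucrose, against 183, 237 and 247 CPM on 0.15 M sucrose without overlap (log2 fold change 1.01, SE 0.30, edgeR adjusted p = 0.221, or 1.04 and 0.126 without replicate 2). Glut1, a glucose transporter gene, lay lower at 14.6, 21.9 and 9.80 CPM on 0.7 M sucrose, against 36.5, 34.96 and 34.2 CPM on 0.15 M sucrose without overlap (log2 fold change -1.12, SE 0.31, edgeR adjusted p = 0.193, or -1.13 and 0.0735 without replicate 2).

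Immune genes were called in both directions. Of 6 Turandot genes tested, TotC was called higher in both fits, beside 0.127% of all genes, or 0.699% without replicate 2. The list median was 1.90, or 1.78 without replicate 2. Not all members rose, as 5 were positive and 1 was negative in each fit. The lowest log2 fold change on the list was -4.997 without replicate 2. In that fit 3 genes were higher and 1 was lower without overlap, beside 13.6% and 14.7% of all genes. TotA had 1018, 2166 and 1146 CPM on 0.7 M sucrose, against 687, 92.2 and 842 CPM on 0.15 M sucrose, without passing (log2 fold change 1.42, SE 0.64, edgeR adjusted p = 0.470, or 0.88 and 0.397 without replicate 2). TotB had 4.73, 24.4 and 10.9 CPM on 0.7 M sucrose, against 2.999, 0 and 0.285 CPM on 0.15 M sucrose, without passing (log2 fold change 3.31, SE 0.80, edgeR adjusted p = 0.119, or 2.98 and 0.0937 without replicate 2). In both genes the groups did not overlap, and 8.12% of all genes tested were likewise higher without overlap. Turandot genes are close copies, and their reads may be split between them. Of 26 immune effector genes, 0 passed with all libraries, while 1 was higher and 1 lower without replicate 2, beside 0.699% and 0.812% of all genes. DptB, which encodes an antibacterial peptide, was the higher one, at 5.52, 6.42 and 2.18 CPM on 0.7 M sucrose, against 0.273, 0 and 1.14 CPM on 0.15 M sucrose (log2 fold change 3.13, SE 0.63, edgeR adjusted p = 0.0659, or 2.87 and 0.0294 without replicate 2). IM2, a gene for a short peptide released into the haemolymph on infection, was the lower one, at 0.197, 0 and 0 CPM on 0.7 M sucrose, against 25.6, 0 and 0.571 CPM on 0.15 M sucrose (1 count on 0.7 M sucrose, 141-fold lower without replicate 2, 95% counting interval 24.6 to 5611, edgeR adjusted p = 0.0329). That fall rested on control 0.15 M replicate 1. The related IM1, IM3, IM4 and IM14 were high in that same library, at 30.8, 79.1, 21.3 and 11.2 CPM, and at most 2.23 CPM in the other 0.15 M libraries. The list median was -0.68, or -0.76 without replicate 2, and 0.13 when only control libraries were fitted.

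Of 61 cytochrome P450 genes tested, Cyp4e3 alone passed with all libraries, beside 0.127% of all genes called higher. Without replicate 2, 3 of 62 were higher and 0 lower, beside 0.699% and 0.812% of all genes. Cyp4d14 had 40.2, 61.8 and 60.98 CPM on 0.7 M sucrose, against 6.54, 14.1 and 17.4 CPM on 0.15 M sucrose, without overlap (log2 fold change 2.10, SE 0.40, edgeR adjusted p = 0.0526, or 2.14 and 0.0219 without replicate 2). Cyp4d1 had 1715, 1606 and 1392 CPM on 0.7 M sucrose, against 411, 2133 and 515 CPM on 0.15 M sucrose, and passed in edgeR only without the middle library on 0.15 M sucrose, which was the highest of the 6 (log2 fold change 0.63, SE 0.52, edgeR adjusted p = 0.672, or 1.74 and 0.00907 without replicate 2). The median over P450 genes was 0.27, or 0.12 without replicate 2.

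Lists of housekeeping and growth genes had few or no calls. The 6 larval serum and fat body protein genes had 0 calls in either fit and a median of 0.24, or 0.15 without replicate 2. Lsp2, which encodes a storage protein, had 68436, 101410 and 83179 CPM on 0.7 M sucrose, against 64737, 48552 and 62672 CPM on 0.15 M sucrose (log2 fold change 0.52, SE 0.49, edgeR adjusted p = 0.708, or 0.38 and 0.744 without replicate 2). Of 86 cytosolic ribosomal protein genes, 0 passed, and the median was 0.08, or 0.23 without replicate 2. Of 23 DNA replication genes, 0 passed with all libraries and 1 was lower without replicate 2, beside 0.812% of all genes. That gene, RnrS, encodes the small subunit of ribonucleotide reductase and had 15.2, 21.7 and 15.2 CPM on 0.7 M sucrose, against 34.9, 39.4 and 36.8 CPM on 0.15 M sucrose (log2 fold change -1.07, SE 0.23, edgeR adjusted p = 0.0847, or -1.04 and 0.0209 without replicate 2). Its values lay apart in all 6 libraries. The median of the DNA replication list was -0.17, or -0.31 without replicate 2. With all libraries 18 of its genes were negative and 5 positive, beside 4104 of all 8662 genes negative. Of the 23, 5 were lower and 1 was higher without overlap, beside 6.20% and 8.12% of all genes. Without replicate 2 these were 11 and 1, beside 14.7% and 13.6%. The 11 mitochondrial genome genes tested had a median of 0.79 with all libraries and 0.18 without replicate 2, the library with almost no mitochondrial counts. Without control 0.15 M replicate 3 that median was 2.06. Muscle markers summed to 5158 to 6227 CPM on 0.7 M sucrose, against 2744 to 16698 CPM on 0.15 M sucrose, the highest of these in replicate 2, and salivary gland markers to 2361 to 5464 CPM on 0.7 M sucrose, against 1342 to 2394 CPM on 0.15 M sucrose. In all, the medians of 14 lists changed sign without replicate 2.

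**Figure D4:**
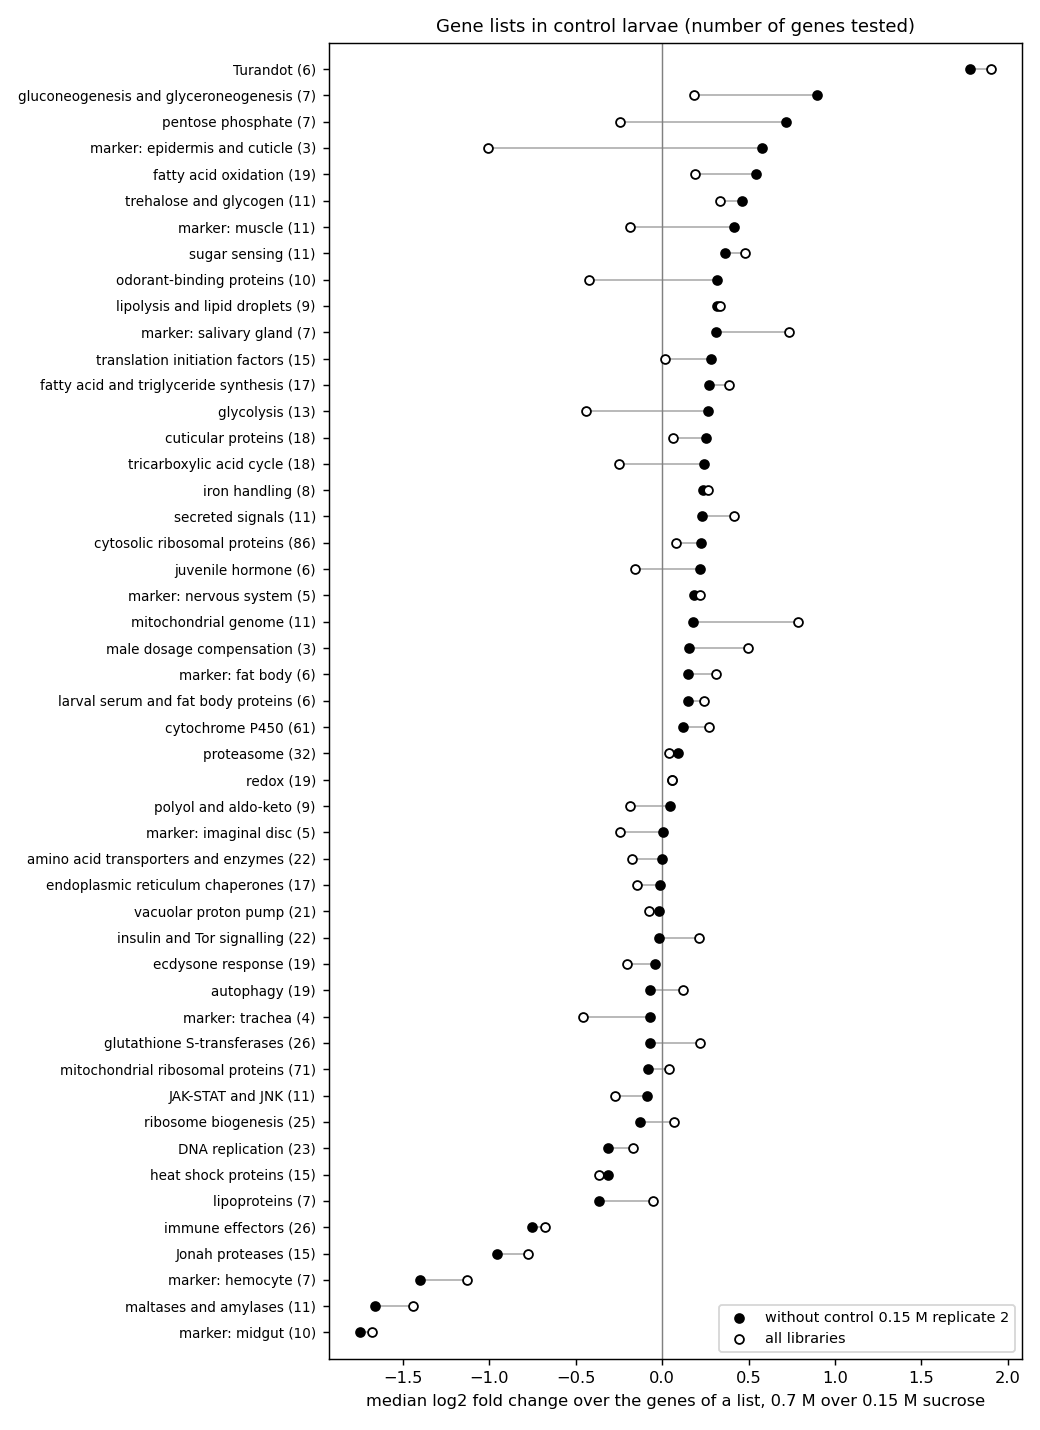
Median log2 fold change of each gene list with at least 3 genes tested, leaving out the lists added later, 0.7 M over 0.15 M sucrose in control larvae, on the horizontal axis, with the number of genes tested in brackets. Filled points leave out control 0.15 M replicate 2, open points use all libraries, and a line joins both. Turandot, midgut marker, maltase and hemocyte lists keep their place, while glycolysis, pentose phosphate and cuticle markers cross 0.

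The same diets in larvae labelled InRi, whose mothers and rearing were the same, gave group means from libraries outside the control group means. The InRi libraries did enter the estimate of spread behind the control calls, so the 2 sets of calls are not fully separate. There 109 genes were called (1.26%), 88 higher (1.02%) and 21 lower (0.242%), or 26 and 17 with total counts. All 11 genes that rose in control larvae had a positive log2 fold change in larvae labelled InRi, and 9 were called higher there, 81.8% of the control list and 10.2% of the InRi list. Cyp4e3 stood at 1832, 1405 and 822 CPM on 0.7 M sucrose, against 28.4, 20.98 and 21.6 CPM on 0.15 M sucrose in larvae labelled InRi (log2 fold change 5.84, edgeR adjusted p = 0.000369), and GRHR at 154, 149 and 113 CPM on 0.7 M sucrose, against 58.4, 39.2 and 50.7 CPM on 0.15 M sucrose (log2 fold change 1.49, edgeR adjusted p = 0.0114). The exceptions were CG43236 at 116, 97.9 and 61.5 CPM on 0.7 M sucrose, against 17.4, 21.98 and 26.04 CPM on 0.15 M sucrose (edgeR adjusted p = 0.132) and TotC at 424, 437 and 409 CPM on 0.7 M sucrose, against 254.89, 98.3 and 147 CPM on 0.15 M sucrose (edgeR adjusted p = 0.408). Of the 13 falls, 12 were negative there and 6 were called lower, 46.2% of the control list and 28.6% of the InRi list. CG13135 stood at 0.178, 0 and 1.24 CPM on 0.7 M sucrose, against 49.96, 46.4 and 22.99 CPM on 0.15 M sucrose (edgeR adjusted p = 0.00216). Without control 0.15 M replicate 2, 62 of 62 rises were positive and 26 called (41.9% of the control list and 29.5% of the InRi list), and 65 of 71 falls were negative and 9 called (12.7% and 42.9%). The InRi count itself was 7 without InRi 0.15 M replicate 2 and 18, 23, 27, 54 and 72 without each of the other InRi libraries.

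The test of the difference between genotypes called 0 genes with edgeR (0%), with 456 at an unadjusted p under 0.05, 17 called by DESeq2 and 4 by limma voom. Genes called in control and not in larvae labelled InRi were thus not shown to differ. The smallest adjusted p was 0.339, in CG6839, the fall whose sign was opposite in larvae labelled InRi, at 10.5, 2.66 and 9.94 CPM on 0.7 M sucrose, against 5.08, 3.97 and 2.74 CPM on 0.15 M sucrose. Without control 0.15 M replicate 2, 1 gene was called in this test, Obp99a, an odorant-binding protein gene, which had 125, 149 and 95.8 CPM on 0.7 M sucrose, against 72.2, 336 and 115 CPM on 0.15 M sucrose in control larvae and 38.95, 46.9 and 36.95 CPM on 0.7 M sucrose, against 241, 258 and 413 CPM on 0.15 M sucrose in larvae labelled InRi.

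**Figure D5:**
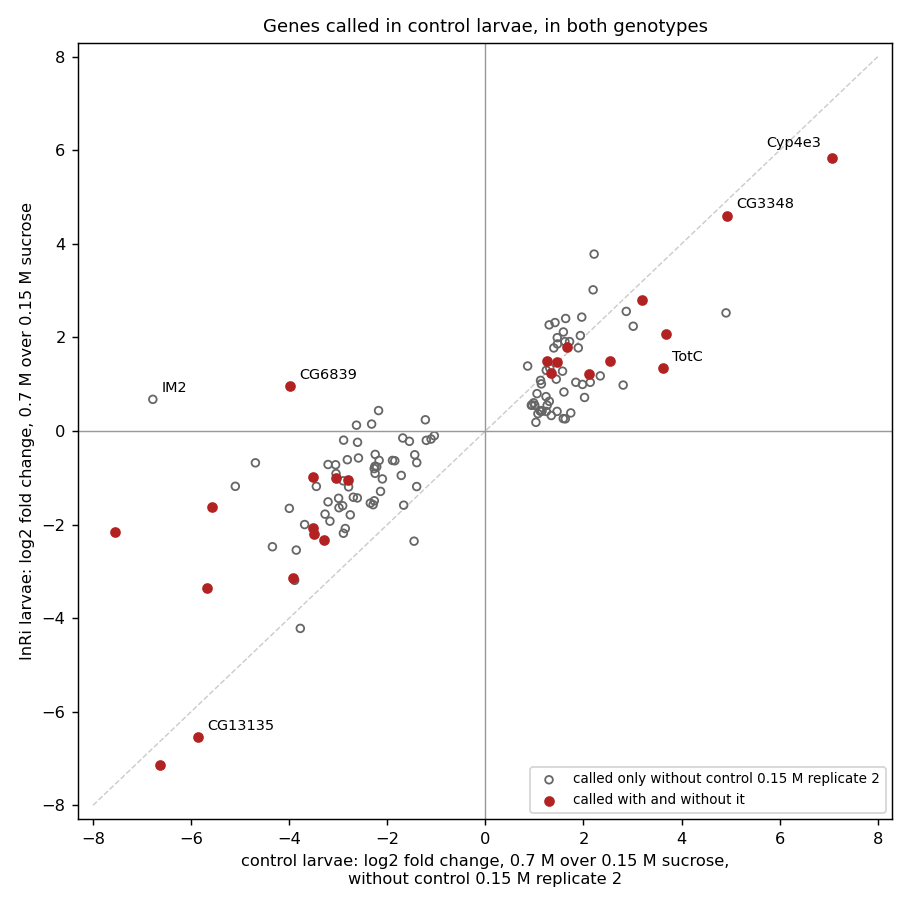
Log2 fold change, 0.7 M over 0.15 M sucrose, of genes called in control larvae without control 0.15 M replicate 2 and tested in both fits. The horizontal axis is the value in control larvae without that library, the vertical axis the value in larvae labelled InRi, and the dashed line marks equality. Filled points are the 24 genes called with and without the library, and most points share their sign on both axes, with CG6839 and IM2 among the exceptions.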

How the data were processed

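The authors deposited raw counts of sequencing reads for 15222 genes in all 12 libraries. Total RNA had been cleared of ribosomal RNA with RiboZero and was sequenced on an Illumina HiSeq, per the labels' protocols. TopHat 1.3.2, Bowtie 0.12.7, Cufflinks 1.1.0 and the build dm3 are named in the submitters' processing notes. How reads were assigned to genes, and whether strand was used, is not given in the sources used here, so overlapping, antisense and near-identical genes are uncertain. Titles tied each column to its diet, genotype and replicate. Symbols were looked up in a later annotation for current names only (11526 current, 3368 synonyms, 328 unmatched).

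Low genes were removed by filterByExpr (minimum count 10, minimum total 15). The rest were scaled by TMM and tested with edgeR 4.0.16 (quasi-likelihood, R 4.3.3), over all 12 libraries with 1 mean per group. P-values were adjusted by Benjamini-Hochberg over all genes tested, with calls under 0.05. All was repeated without control 0.15 M replicate 2. Where a group had 1 to 3 counts, the scaled ratio of summed counts is given with its 95% interval, which covers counting error only. No 2 libraries were copies, with a chi-square per gene of at least 3.81 in every pair. The edgeR fit was also run on simulated counts with set fold changes. No simulated library stood apart, so that run does not cover the effect of control 0.15 M replicate 2. Alternatives used DESeq2 1.42.0, limma 3.58.1, other scalings and filters, a replicate block, fewer libraries and each omission. Figures were drawn with Python 3.11.15 and matplotlib 3.10.9.

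The comparison, 52 gene lists and 6 lists added later were chosen with earlier results of these data known, so lists are described by counts and medians with no test. Named genes were the 14 largest rises and 14 largest falls among called genes whose groups did not overlap, with 5 CPM or more on average in the higher group, of which 11 and 12 qualified. To these were added the 6 largest of each kind called only without replicate 2, up to 5 genes with the smallest p per list, and InR. Other genes were named after their values were seen.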

Additional observations from a re-analysis of the deposited data

How the results depend on the processing

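The number of genes called in control larvae, 24 in the fit reported, was 24 with size factors of the DESeq2 kind and 23 under a stricter filter, 12 with total counts, 58 with no filter, 11 with the replicate number as a block, 180 with DESeq2, 132 with limma voom and 0 when only control libraries were fitted (410 genes at an unadjusted p under 0.05, against 908 with all libraries). Omitting 1 control library gave 4 to 134. DESeq2 called all 24 and limma voom, which gave control 0.15 M replicate 2 a weight of 0.0671, called 22 of them. Of the 134 called without that library, limma voom with all libraries called 102 and DESeq2 86. In larvae labelled InRi the 109 calls, 110 with those size factors, became 43 with total counts, where the median log2 fold change of all genes was -0.27 against -0.02, 312 with DESeq2, 614 with limma voom, 53 with the block, 343 when only InRi libraries were fitted, and 7 to 72 with 1 InRi library omitted. The test between genotypes gave 0 calls, also with total counts, where the median of all genes was 0.30, 17 with DESeq2, 4 with limma voom and 0 to 2 in omissions. Deviations of same-numbered control libraries correlated at 0.0405, 0.0011 and -0.00997, and those of different-numbered ones at -0.0926 to 0.0842. In larvae labelled InRi these were 0.0760, -0.377 and -0.355, and -0.232 to 0.511. With 3 libraries per group, 1 of them standing apart, these values cannot settle whether replicate numbers pair the libraries. No named gene that was called changed sign in any setting run. All 23 named calls ended when only control libraries were fitted, with the cause not tested. The medians of 14 lists changed sign without replicate 2, and with limma voom that of glycolysis was 0.38 and that of pentose phosphate 0.72. The description of promoter motifs was not run, and promoter sequences were not used here. Depth limits low genes in particular, since 3 counts were worth up to 3.27 CPM in a control library.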

Other observations

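Enzymes of coenzyme A and polyamine synthesis had calls once control 0.15 M replicate 2 was left out. These lists were chosen after their values were seen. Of 3 coenzyme A genes tested, 0 passed with all libraries and 2 were higher without replicate 2, beside 0.699% of all genes. fbl encodes pantothenate kinase, the first step, and had 172, 196 and 260.28 CPM on 0.7 M sucrose, against 93.8, 60.3 and 79.6 CPM on 0.15 M sucrose (log2 fold change 1.42, SE 0.29, edgeR adjusted p = 0.0659, or 1.24 and 0.0399 without replicate 2). Ppat-Dpck encodes the enzyme of the last steps and had 139, 160.18 and 128 CPM on 0.7 M sucrose, against 71.2, 173 and 68.8 CPM on 0.15 M sucrose (log2 fold change 0.46, SE 0.33, edgeR adjusted p = 0.621, or 1.01 and 0.0245 without replicate 2). Of 5 polyamine genes, 0 passed with all libraries and 2 were higher without replicate 2, beside the same 0.699%, Odc1 (ornithine decarboxylase) at 159, 167 and 175 CPM on 0.7 M sucrose, against 74.7, 123 and 58.2 CPM on 0.15 M sucrose (log2 fold change 0.97, SE 0.29, edgeR adjusted p = 0.220, or 1.302 and 0.0133 without replicate 2) and SpdS (spermidine synthase) at 127, 182 and 122 CPM on 0.7 M sucrose, against 44.98, 24.5 and 74.8 CPM on 0.15 M sucrose (log2 fold change 1.56, SE 0.36, edgeR adjusted p = 0.0967, or 1.24 and 0.0399 without replicate 2). In fbl, Odc1 and SpdS the groups did not overlap even with replicate 2, while in Ppat-Dpck that library was the highest of the 6.

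Some single genes of amino acid and peroxisome metabolism, also chosen after their values were seen, were called higher without replicate 2, beside 0.699% of all genes. They were picked from the rises, while 0.812% of all genes were called lower. Among those were CG8629, now named Acbp4 (-3.21 and 0.0438 without replicate 2), and bgm. The latter had 2.96, 4.87 and 6.53 CPM on 0.7 M sucrose, against 12.3, 45.4 and 14.3 CPM on 0.15 M sucrose (log2 fold change -2.38, SE 0.54, edgeR adjusted p = 0.0967, or -1.67 and 0.0376 without replicate 2). The asparagine synthetase gene asparagine-synthetase had 144, 226 and 223 CPM on 0.7 M sucrose, against 58.6, 84.8 and 88.5 CPM on 0.15 M sucrose (log2 fold change 1.35, SE 0.29, edgeR adjusted p = 0.0813, or 1.39 and 0.0311 without replicate 2). Eaat1, a glutamate transporter gene, had 48.9, 64.03 and 69.7 CPM on 0.7 M sucrose, against 19.9, 28.3 and 22.8 CPM on 0.15 M sucrose (log2 fold change 1.37, SE 0.28, edgeR adjusted p = 0.0659, or 1.47 and 0.0200 without replicate 2). Mfe2, the gene of a peroxisomal enzyme of fatty acid oxidation, had 239.55, 296 and 262 CPM on 0.7 M sucrose, against 117, 383 and 135 CPM on 0.15 M sucrose (log2 fold change 0.34, SE 0.37, edgeR adjusted p = 0.749, or 1.05 and 0.0166 without replicate 2). CG14815, now named Pex5, the gene of the import receptor of peroxisomes, had 121, 132 and 140.48 CPM on 0.7 M sucrose, against 61.1, 141 and 69.1 CPM on 0.15 M sucrose (log2 fold change 0.55, SE 0.31, edgeR adjusted p = 0.539, or 0.98 and 0.0376 without replicate 2). CLS, which encodes cardiolipin synthase, had 57.4, 72.7 and 54.5 CPM on 0.7 M sucrose, against 22.6, 34.2 and 37.1 CPM on 0.15 M sucrose (log2 fold change 0.99, SE 0.24, edgeR adjusted p = 0.1202, or 1.03 and 0.0389 without replicate 2). In Mfe2 and Pex5 replicate 2 on 0.15 M sucrose was the highest of the 6 libraries, and in asparagine-synthetase, Eaat1 and CLS the groups did not overlap with it.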
